A study of Mus musculus with 4 samples.

Results

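The p53 pathway was followed here as 30 genes, chosen by symbol: the p53 gene Trp53 with its inhibitors Mdm2 and Mdm4, 10 genes of growth arrest and stress signalling, 11 of apoptosis, and 6 of DNA repair and metabolism. All 30 had at least 1 probe on the array, among 22907 genes named through their RefSeq accession, and 50 probes in all. RNA was taken 2 days after transfection from RAW264.7, a line of mouse macrophages derived from a tumour induced by Abelson murine leukaemia virus. The 4 groups, with 1 array and so 1 sample each, were non-targeting control siRNA with DMSO, control siRNA with LPS (lipopolysaccharide, the bacterial ligand of Toll-like receptor 4), a SMARTpool of siRNAs against Ruvbl2 with DMSO, and the same pool with LPS. The labels name no genetic change in the line and state neither how much LPS was given nor for how long. They name electroporation or a transfection reagent without saying which was used for which sample. RUVBL2 is an AAA+ ATPase of chromatin remodelling complexes and of a chaperone complex. The question posed by the study is what part RUVBL2 has in the induction of inflammatory genes by LPS.

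The p53 protein is a transcription factor that cells hold at a low amount through MDM2, a ubiquitin ligase whose gene p53 itself switches on. Stress such as DNA damage stabilises p53 mainly at the level of protein, so the abundance of Trp53 mRNA need not follow p53 activity, and its target genes are the usual readout at the level of RNA. Those targets halt the cell cycle, promote apoptosis or serve repair. In macrophages several of them, among them Fas and Plk2, are also induced by inflammatory signals.

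p53 binds DNA through pairs of a decamer called the half-site, made of purines, then C, a pair of A or T, G, then pyrimidines. The RefSeq promoter windows (GRCm38.p6, from 250 bases before to 50 after an annotated start) held 31 windows of 22 members, and 11 windows of 10 members had a half-site, against 8.36% of all 32851 windows. By gene this was 45.5% of the members with a window and 9.55% of the 27025 genes in the table. The 10 were Trp53, Mdm2, Cdkn1a, Ccng1, Gtse1, Sesn1, Bax, Ei24, Aen and Polk. Only Cdkn1a had 2 half-sites with 0 to 13 bases between them, which 24 of all windows had. Ddb2, Perp, Pmaip1, Rrm2b, Tnfrsf10b, Trp53inp1, Xpc and Zmat3 had no window in the table. The letters TTTGAA of the cell cycle CHR element, on either strand, were in 5 of the 31 windows, and 17.9% of all windows had them. The NF-kB decamer was in 3 windows of Trp53, Bbc3 and Gtse1, against 8.46% of all. These counts describe letters in short windows and not binding. The sequences below are the whole upstream window of Phlda3, the member with the largest siRNA difference in both treatments, and the stretches of Cdkn1a, Mdm2, Ccng1 and Bax around their half-sites, which are in capitals and end before the start. They lie at chr1:135765835-135766084 (plus strand), chr17:29090869-29090968 (plus), chr10:117710899-117710978 (minus), chr11:40755427-40755506 (minus) and chr7:45467054-45467133 (minus), in this order, and are written on the strand of the gene.
Phlda3: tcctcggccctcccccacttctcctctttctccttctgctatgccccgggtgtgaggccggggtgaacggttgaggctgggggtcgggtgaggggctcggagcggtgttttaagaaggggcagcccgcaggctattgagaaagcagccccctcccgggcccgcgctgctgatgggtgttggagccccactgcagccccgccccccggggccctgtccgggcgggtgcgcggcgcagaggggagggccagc
Cdkn1a: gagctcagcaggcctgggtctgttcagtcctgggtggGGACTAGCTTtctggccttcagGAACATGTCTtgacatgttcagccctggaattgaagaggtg
Mdm2: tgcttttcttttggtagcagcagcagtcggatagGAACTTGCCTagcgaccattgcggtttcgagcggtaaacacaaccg
Ccng1: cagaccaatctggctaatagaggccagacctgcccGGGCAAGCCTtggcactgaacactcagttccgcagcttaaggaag
Bax: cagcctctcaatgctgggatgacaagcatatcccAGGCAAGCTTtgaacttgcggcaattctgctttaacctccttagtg
The Phlda3 stretch was rich in G and C (71.2%) and held no half-site. The stretch of Cdkn1a comes from the upstream of its 2 annotated starts. Only strict matches are in capitals. The decamer straight after the second half-site of Cdkn1a opens with t in place of a purine, so it was not marked.

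Levels are the log2 of the processed signal minus the 75th percentile of that array, so that 0 is the 75th percentile. A probe was detected where the scanner software called it well above background. A gene was called higher or lower at a difference of 1 on the log2 scale, which is 2-fold, and is represented by its brightest probe. With 1 array per group no difference can be set against replicate error and no p-value is given. The error beside a difference is a technical SD, taken from 300 probes printed 10 times on each array. It covers spots within an array and not cultures. It is 0.06 above a level of 3, 0.13 from -2 to 3, 0.27 from -4 to -2 and 0.62 below -4. These values hold when both arrays lie in that range. Pairs of such a probe and an array numbered 1071, 18, 23 and 88 in these ranges, so 0.13 and 0.27 rest on few. Of the 30 members, 27 were detected on all 4 arrays, Eda2r on 3 and Gdf15 on 1. Perp, a gene of epithelial cell junctions, was detected on none (levels -7.24 to -7.05).

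The arrays were alike in the share of spots detected (54.1% to 55.0%), with 0 saturated spots. The siRNA went with the position on the slide, control in the first row and Ruvbl2 in the other, and these cannot be told apart. Of 12 macrophage markers 10 were detected on all arrays, with Mertk and Cd163 on none. Few markers of fibroblasts (1 of 6) and epithelium (0 of 5) were detected on all arrays. The same held for B cells (1 of 4), neutrophils (1 of 5) and mast cells (1 of 4). Of 5 T cell markers, Cd3e, Cd3d, Cd4 and Lck were detected on all 4 arrays and Cd8a on none. All 5 LPS response genes checked (Tnf, Il1b, Nos2, Ptgs2 and Ccl2) were called higher with LPS under either siRNA. Between the siRNAs in LPS, 3 of the 5 were called lower with Ruvbl2 siRNA and 0 higher, with a median of -1.04. Over all genes these shares were 1.46% and 1.06%. Ruvbl2 itself, by its brighter probe, had levels of 5.01 with control siRNA and 4.67 with Ruvbl2 siRNA in DMSO, and 4.92 and 4.51 in LPS. The differences were -0.34 and -0.40, each short of 2-fold. Its dimmer probe differed by -0.55 ± 0.21 (technical SD) and by -0.12 ± 0.27. Ruvbl1, the partner of Ruvbl2, had levels of 5.43 to 5.58. The E1A spike-ins, RNAs added in a known amount, had a median level of 3.95 on the Ruvbl2 siRNA DMSO array and 3.57 to 3.64 on the others. Scaling on them lowers every siRNA difference in DMSO by the same amount, and moved the median over all genes from 0.04 to -0.26, while in LPS it stayed near 0.

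**Figure D1:**
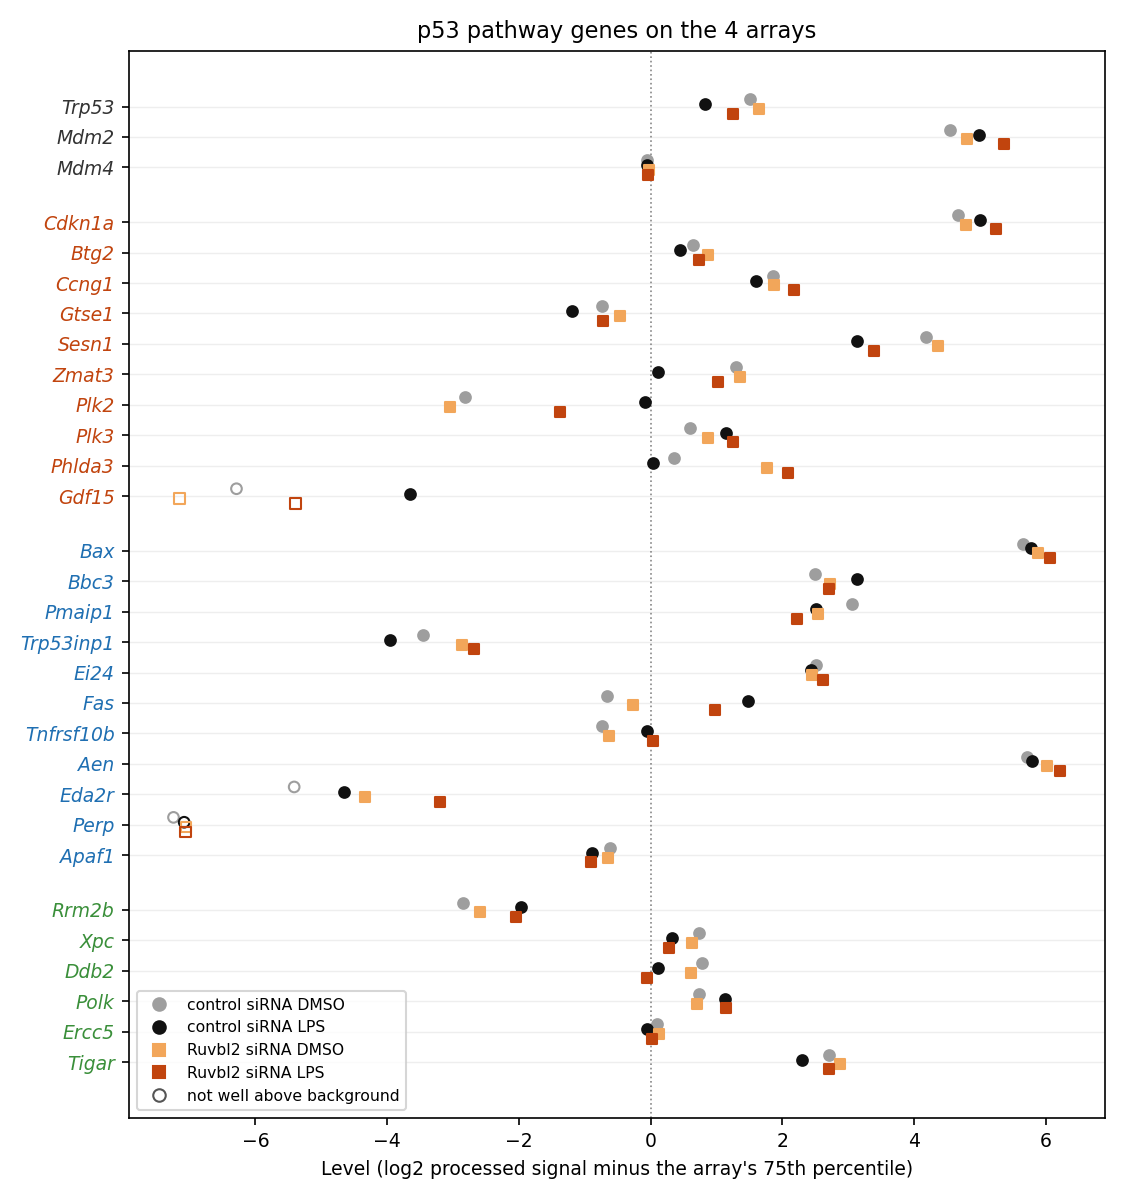
Level of each of the 30 genes on each array (x axis, log2 processed signal minus the 75th percentile of the array, which is the dotted line at 0), with genes grouped by role on the y axis and 1 point per array; open points were not well above background. Phlda3 lies higher on both Ruvbl2 siRNA arrays (1.77 and 2.08) than on both control arrays (0.36 and 0.03), while Plk2 and Fas lie higher on both LPS arrays.

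With Ruvbl2 siRNA, Phlda3 stood out among these genes in both treatments. PHLDA3 is a pleckstrin homology domain protein that keeps the kinase Akt from the membrane. Its processed signal with control siRNA was 586 in DMSO and 405 in LPS, and with Ruvbl2 siRNA it was 1126 and 1727. Both Ruvbl2 siRNA arrays were thus above both control arrays, and the 2 pairs use separate arrays. It was 2.65-fold higher with Ruvbl2 siRNA in DMSO (log2 difference 1.41 ± 0.13, technical SD) and 4.14-fold higher in LPS (2.05 ± 0.13). Phlda3 ranked 17 from the top of 12732 genes measured on both DMSO arrays and 4 of 12782 on the LPS arrays. It was 1 of 9 genes past 2-fold as higher in both, of 12469 genes measured on all 4 arrays. The difference in DMSO was 1.104 with spike-in scaling. Its nearest protein-coding neighbours on the chromosome differed less: Csrp1 by 0.39 in DMSO and -0.29 in LPS, and Tnni1 by -0.26 and 0.11. A single probe reports Phlda3.

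In DMSO, Phlda3 was the only member past 2-fold between the siRNAs: 1 of 28 compared was higher and 0 lower. Over all genes, percent called was 1.01 for higher and 0.537 for lower. Of the 27 members measured on both arrays 20 were above 0, with a median of 0.13, against 58.4% of all genes and a median of 0.04. With spike-in scaling 3 of the 27 were above 0 (Phlda3, Fas and Trp53inp1) and the median was -0.17, so the sign of the other small differences depends on the scaling. Past 2 technical SDs, 9 members were higher and 1 lower, against 19.8% and 9.87% of all genes. At a smaller size rule of 1.5-fold, 3 were higher (Phlda3, Trp53inp1 and Eda2r, the last as a bound) and 0 lower, against 3.73% and 2.5%.

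In LPS more members differed between the siRNAs, in both directions. Phlda3, Trp53inp1 and Eda2r were higher, 3 of 29 compared, and Plk2 and Gdf15 were lower, while percent called over all genes was 1.06 for higher and 1.46 for lower. Of 28 members measured on both arrays 20 were above 0, with the same count under spike-in scaling, and the median was 0.21 against 0.00 over all genes. Past 2 technical SDs, 14 were higher and 4 lower, and the shares over all genes were 19.4% and 17.9%. At 1.5-fold Zmat3 and Ccng1 joined the higher genes to make 5, with 2 lower, against 3.85% and 5.26%. The 2 siRNA comparisons rest on separate arrays: of 27 members measured on all 4, 17 were above 0 in both, 5 below 0 in both and 5 of opposite sign, and 81.5% had the same sign in both, against 61.4% of all genes. That share turns on the scaling in DMSO.

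**Figure D2:**
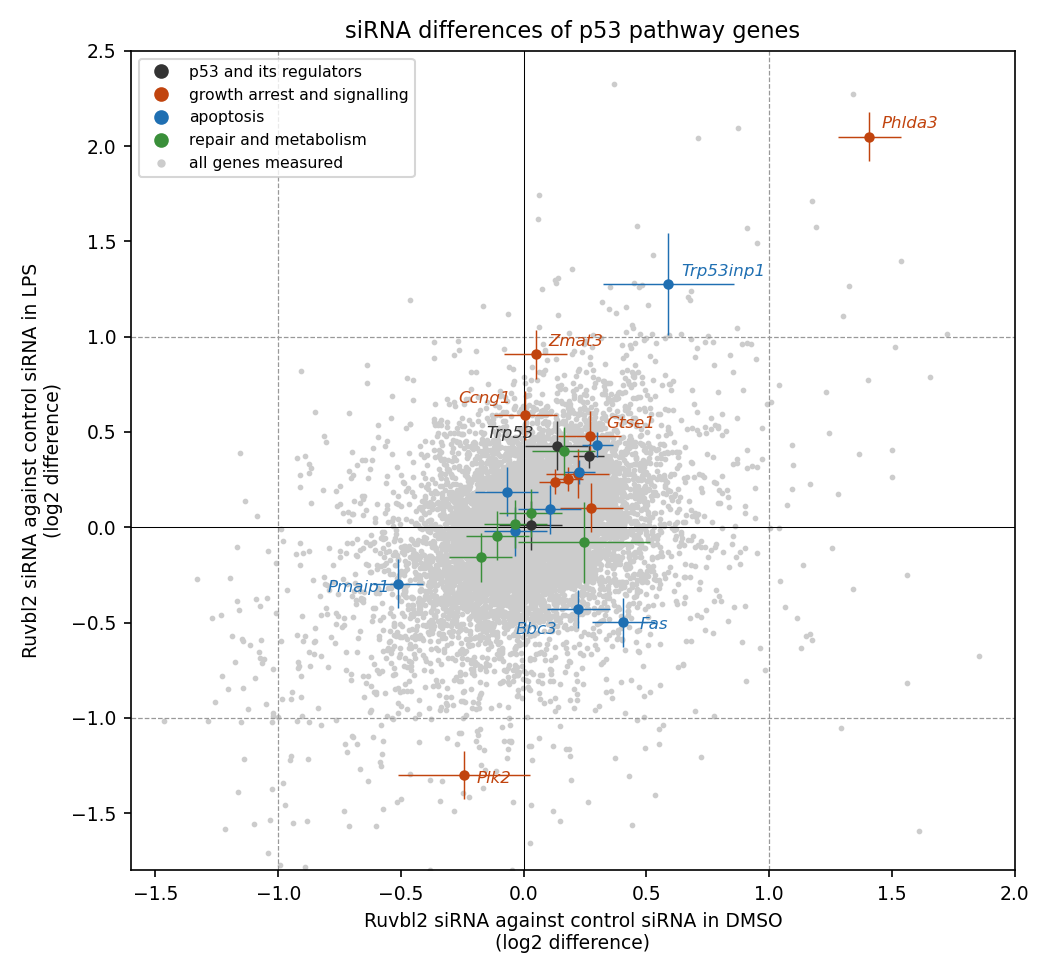
Ruvbl2 siRNA minus control siRNA in DMSO (x axis) against the same in LPS (y axis), both as log2 differences, for 27 pathway genes measured on all 4 arrays (coloured by role, bars 1 technical SD) and all genes measured (grey, some beyond the axes); dashed lines mark 2-fold. Phlda3 alone among the members lies past 2-fold on both axes (1.41 and 2.05), and Plk2 lies lowest in LPS at -1.30.

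Trp53, which encodes p53, had levels of 1.52 in DMSO and 0.82 in LPS with control siRNA, and of 1.65 and 1.25 with Ruvbl2 siRNA. It was lower on each LPS array than on the DMSO array of the same siRNA. The siRNA difference was 0.13 ± 0.13 in DMSO (spike-in scaling gave -0.17 there) and 0.43 ± 0.13 in LPS, where it was 1.34-fold. Mdm2, the ubiquitin ligase that limits p53 and is its target, had levels of 4.55, 4.99, 4.81 and 5.37 on the control DMSO, control LPS, Ruvbl2 DMSO and Ruvbl2 LPS arrays. It was 1.20-fold higher with Ruvbl2 siRNA in DMSO (-0.04 on the log2 scale with spike-in scaling) and 1.30-fold higher in LPS (0.37 ± 0.06). The dimmer Mdm2 probe gave 0.20 and 0.32. Mdm4, the partner of MDM2 that blocks p53 without degrading it, lay between -0.06 and -0.03 on all 4 arrays by its brightest probe. Its other 3 probes differed between the treatments: they gave 0.20 to 0.25 in DMSO and -0.27 to 0.12 in LPS. None of these 3 genes reached 2-fold in any comparison.

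Among growth arrest genes, Cdkn1a encodes p21, the inhibitor of cyclin-dependent kinases. Its brighter probe had levels of 4.67, 5.01, 4.80 and 5.25 on the control DMSO, control LPS, Ruvbl2 DMSO and Ruvbl2 LPS arrays. The order of the arrays was thus the same as for Mdm2. The siRNA differences were 0.13 ± 0.06 in DMSO (-0.18 with spike-in scaling) and 0.24 ± 0.06 in LPS. The second probe, annotated to transcript NM_001111099 in place of NM_007669, differed from it under LPS. Its levels were -0.84, -1.25, -0.65 and -0.20 in the same order, so that the Ruvbl2 siRNA LPS array was highest and the control LPS array lowest. The siRNA difference by this probe was 0.20 ± 0.13 in DMSO and 1.05 ± 0.13 in LPS. The gene has 2 annotated starts, and the tables do not pair either start with a probe.

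Ccng1, which encodes cyclin G1, had levels of 1.86 and 1.87 with the 2 siRNAs in DMSO and of 1.60 and 2.18 in LPS, the higher value with Ruvbl2 siRNA. Its siRNA difference was 0.01 ± 0.13 in DMSO and 0.59 ± 0.13 in LPS. Zmat3, a zinc finger RNA-binding protein, followed a like course: 1.30 and 1.35 in DMSO, then 0.11 with control siRNA and 1.02 with Ruvbl2 siRNA in LPS. Zmat3 was 1.88-fold higher with Ruvbl2 siRNA in LPS (0.91 ± 0.13), short of 2-fold. Gtse1, a regulator of p53 in G2, was 1.39-fold higher in LPS (-1.20 against -0.72), and Btg2, an antiproliferative cofactor of mRNA deadenylation, 1.22-fold higher. Sesn1, a sestrin that restrains mTORC1, differed by 0.18 ± 0.06 in DMSO and 0.25 ± 0.06 in LPS, and Plk3, a polo-like kinase of stress responses, by 0.28 ± 0.13 and 0.10 ± 0.13. With spike-in scaling the DMSO differences of Ccng1, Zmat3, Gtse1, Btg2, Sesn1 and Plk3 were below 0.

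Plk2 and Gdf15 went the other way under LPS. Plk2, a polo-like kinase that is both a p53 target and an early response gene, had levels of -2.81 in DMSO and -0.08 in LPS with control siRNA, and of -3.05 and -1.38 with Ruvbl2 siRNA. It was higher on both LPS arrays, and less so with Ruvbl2 siRNA. The siRNA difference was -0.24 ± 0.27 in DMSO and -1.30 ± 0.13 in LPS, or 2.46-fold lower, and -0.95 after normexp background correction and quantile normalization. Gdf15, a stress-induced cytokine of the TGF-beta superfamily, was detected on the control siRNA LPS array alone, at a level of -3.65. It was at least 2.24-fold lower on the Ruvbl2 siRNA LPS array, a bound set by the lowest level detected there, and was not compared in DMSO. With normexp correction this difference was -0.50.

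Among the apoptosis genes, Trp53inp1 and Eda2r were higher with Ruvbl2 siRNA past 2-fold in LPS, and others were lower. Trp53inp1, a stress-induced nuclear protein that promotes p53 phosphorylation, had levels of -3.45 in DMSO and -3.95 in LPS with control siRNA, and of -2.86 and -2.68 with Ruvbl2 siRNA. Both Ruvbl2 siRNA arrays were above both control arrays. The siRNA difference was 0.59 ± 0.27 in DMSO and 1.28 ± 0.27 in LPS, or 2.42-fold, and its second probe gave 0.00 ± 0.62 and 1.35 ± 0.48. Eda2r, a receptor of the TNF receptor family, was not detected on the control siRNA DMSO array. Its levels were -4.65 with control siRNA and LPS, and with Ruvbl2 siRNA -4.33 in DMSO and -3.20 in LPS. It was 2.73-fold higher with Ruvbl2 siRNA in LPS (1.45 ± 0.48) and at least 1.77-fold higher in DMSO. A second Eda2r probe was detected on the Ruvbl2 siRNA LPS array alone, at -3.40. Both genes were dim: with normexp correction and quantile normalization their LPS differences were 0.59 and 0.46.

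Bax, the pore-forming effector of mitochondrial apoptosis, had levels of 5.66, 5.78, 5.88 and 6.07 on the control DMSO, control LPS, Ruvbl2 DMSO and Ruvbl2 LPS arrays. Both probes put it higher with Ruvbl2 siRNA in LPS, by 0.29 ± 0.06 and 0.34 ± 0.06, while in DMSO they disagreed (0.23 and -0.11). Aen, a nuclease that p53 induces during apoptosis, was higher with Ruvbl2 siRNA by all 3 probes: by 0.30, 0.34 and 0.12 in DMSO and by 0.43, 0.48 and 0.52 in LPS. With spike-in scaling, which lowers each DMSO difference by the same amount, the first of these was near 0. The third, at 0.12 before that scaling, was thus below 0 in DMSO. Ei24, an endoplasmic reticulum protein of autophagy, differed by -0.07 ± 0.13 and 0.19 ± 0.13.

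Several other death genes were lower or nearly level. Pmaip1, which encodes the BH3-only protein NOXA, had levels of 3.06 and 2.55 in DMSO and of 2.52 and 2.22 in LPS, lower with Ruvbl2 siRNA each time (-0.51 ± 0.10 and -0.30 ± 0.13). It was the only member below 0 by more than 2 technical SDs in both treatments. Bbc3, which encodes the BH3-only protein PUMA, differed by 0.22 ± 0.13 in DMSO (spike-in scaling, -0.08) and by -0.43 ± 0.10 in LPS. Fas, a death receptor, had levels of -0.67 and -0.26 in DMSO and of 1.48 and 0.98 in LPS. Fas was thus higher with Ruvbl2 siRNA in DMSO (0.41 ± 0.13, or 0.10 with spike-in scaling) and lower in LPS (-0.50 ± 0.13). Tnfrsf10b, the TRAIL receptor, differed by 0.11 and 0.09, and Apaf1, the scaffold of the apoptosome, by -0.04 and -0.02. Apaf1 levels were -0.61 and -0.64 in DMSO and -0.88 and -0.91 in LPS. Dimmer probes of Tnfrsf10b and Apaf1, in this order, gave siRNA differences of 0.91 and 0.56 in DMSO and of -0.41 and -0.58 in LPS.

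**Figure D3:**
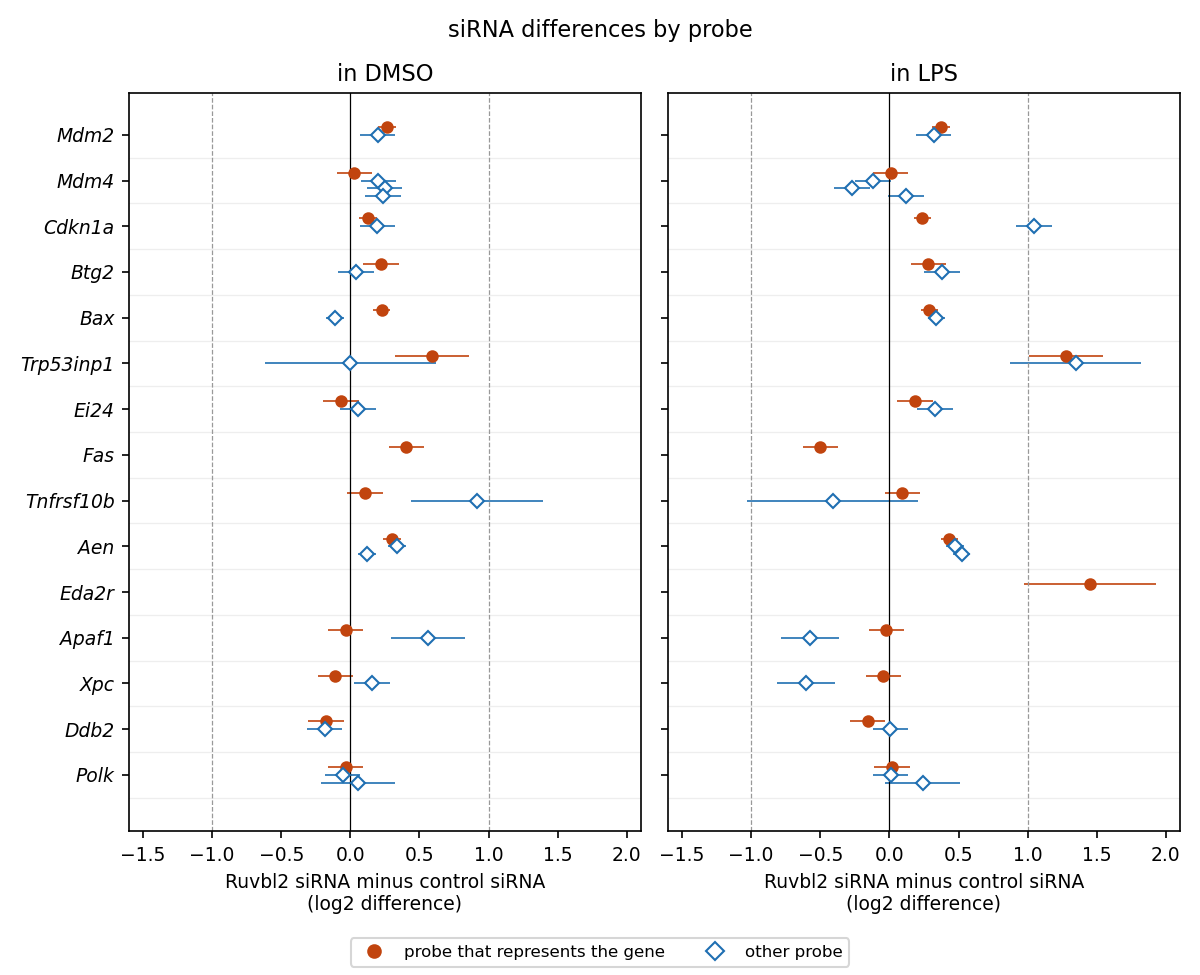
Ruvbl2 siRNA minus control siRNA by probe (x axis, log2 difference, bars 1 technical SD) for each member with several probes (y axis), in DMSO on the left and LPS on the right; filled circles are the brightest probe, open diamonds the others, dashed lines 2-fold, and undetected probes are left out. In LPS both probes of Trp53inp1 lie past 1 (1.28 and 1.35), the probes of Aen lie together, and the probes of Cdkn1a lie apart at 0.24 and 1.05.

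The repair and metabolism genes differed little between the siRNAs, and none reached 2-fold in any comparison. Over the 6 genes the siRNA differences ran from -0.17 to 0.25 in DMSO and from -0.16 to 0.40 in LPS, with medians near 0 in both. Tigar, a phosphatase that diverts glucose from glycolysis, was the highest in LPS, at levels of 2.30 with control and 2.70 with Ruvbl2 siRNA (0.40 ± 0.13). Ddb2 and Xpc, which recognise damaged bases in nucleotide excision repair, differed by -0.17 and -0.11 in DMSO and by -0.16 and -0.04 in LPS. Their second probes gave -0.19 and 0.16 in DMSO and 0.01 and -0.61 in LPS. The endonuclease gene Ercc5 differed by 0.03 and 0.07. Polk, a translesion DNA polymerase, differed by -0.03 and 0.02, and its levels of 0.74, 1.13, 0.70 and 1.15 separated LPS from DMSO arrays alone. Rrm2b, the p53-inducible subunit of ribonucleotide reductase, differed by 0.25 ± 0.27 and -0.08 ± 0.21.

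LPS itself took some of these genes past 2-fold. With control siRNA 3 of 29 compared were higher (Plk2 6.64-fold, Fas 4.42-fold and Gdf15 at least 2.83-fold) and 2 lower (Zmat3 2.28-fold and Sesn1 2.07-fold). Percent called over all genes was 5.74 for higher and 2.21 for lower. With Ruvbl2 siRNA 3 of 28 were higher (Plk2 3.19-fold, Fas 2.36-fold and Eda2r 2.20-fold) and 0 lower, against 4.14 and 2.07 percent. With normexp and quantile normalization some of these fell short of 2-fold. They were Gdf15 (0.54) and Zmat3 (-0.95) with control siRNA, and Eda2r (0.36) with Ruvbl2 siRNA. Sesn1 lay just on either side of the size rule, at -1.05 with control siRNA (-0.98 with spike-in scaling) and -0.98 with Ruvbl2 siRNA. The member medians were -0.16 and 0.18, against 0.00 and -0.03 over all genes. With spike-in scaling the LPS median with Ruvbl2 siRNA was 0.55 over the members, 25 of 28 of them above 0, and 0.33 over all genes. Past 2 technical SDs, 9 members were higher and 11 lower with control siRNA, against 26.9% and 24.4% of all genes, and 13 and 8 with Ruvbl2 siRNA, against 23.4% and 26.1%. At 1.5-fold the counts with control siRNA were 6 higher, adding Bbc3, Tnfrsf10b and Rrm2b, and 4 lower, adding Trp53 and Ddb2, against 11.9% and 8.11%. With Ruvbl2 siRNA they were 4 higher and 2 lower (Sesn1 and Ddb2), against 9.12% and 7.84%. The first median was -0.036 without a filter on dim probes. The second was 0.055 with the mean of the probes of a gene, and -0.011 among genes whose brighter array reached a level of -2.

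Below 2-fold, Mdm2 was higher with LPS under both siRNAs (0.44 ± 0.06 and 0.55 ± 0.06). The probes of Cdkn1a had opposite signs with control siRNA, at 0.34 ± 0.06 by the brighter and -0.41 ± 0.13 by the other, with a mean of -0.033, and both gave 0.45 with Ruvbl2 siRNA. Trp53 was lower, at -0.70 ± 0.13 with control siRNA and -0.40 ± 0.13 with Ruvbl2 siRNA, the latter -0.04 with spike-in scaling. Ddb2 was lower, at -0.68 and -0.66, and Tnfrsf10b differed by 0.68 and 0.66 by its brighter probe. With Ruvbl2 siRNA the Tnfrsf10b value was 1.03 with spike-in scaling, -0.82 ± 0.48 by the dimmer probe and -0.079 as the mean of both. Probes of Apaf1 (-0.27 and 0.80), Mdm4 (0.01 and, by the most different, -0.46), Bax (0.12 and -0.08) and Aen (0.07 and -0.08) also had opposite signs for LPS with control siRNA. Rrm2b was higher by 0.87 ± 0.21 and 0.55 ± 0.27.

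**Figure D4:**
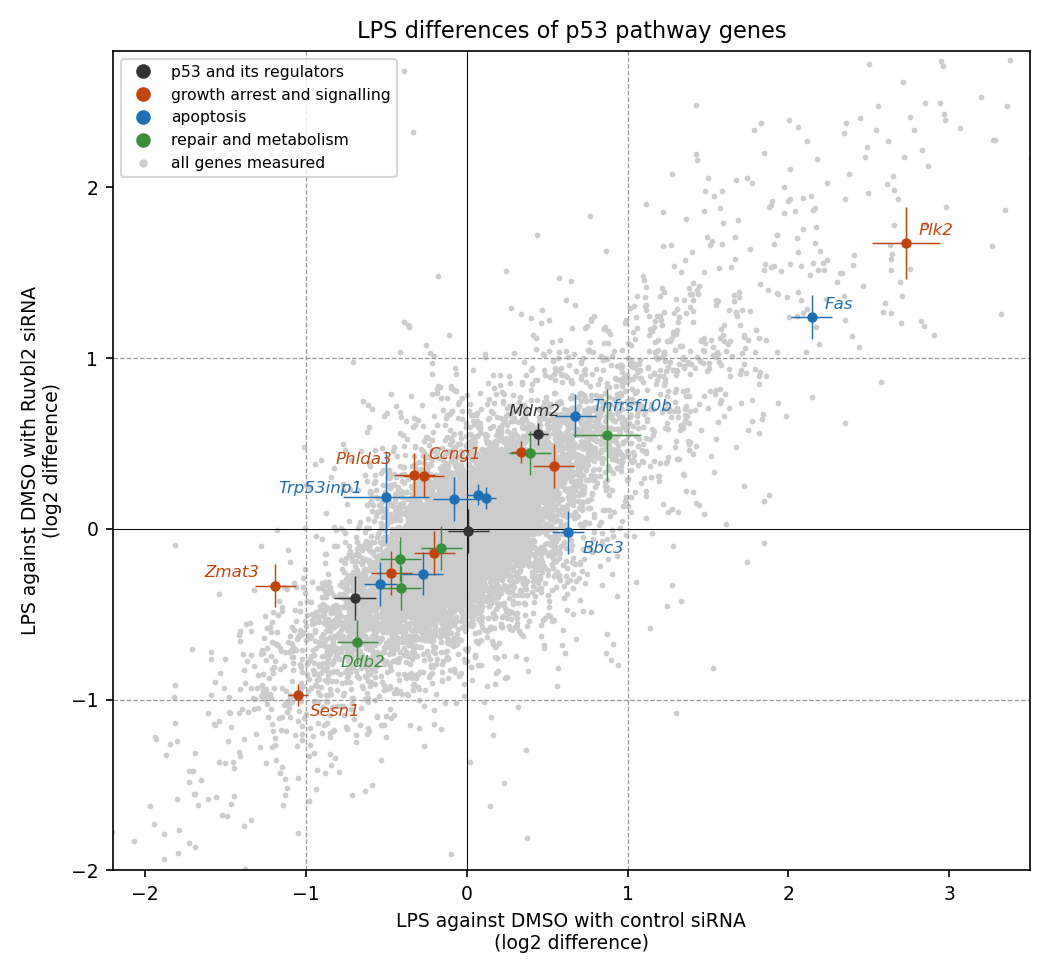
LPS minus DMSO with control siRNA (x axis) against the same with Ruvbl2 siRNA (y axis), as log2 differences, for 27 pathway genes measured on all 4 arrays (coloured by role, bars 1 technical SD) and all genes measured (grey, some beyond the axes); dashed lines mark 2-fold. Plk2 and Fas lie past 2-fold on both axes, Zmat3 and Sesn1 are lower past it with control siRNA alone, and Ccng1 and Phlda3 are among the genes with opposite signs on the 2 axes.

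The LPS effects were then subtracted from one another, Ruvbl2 siRNA minus control siRNA, for the 27 members detected on all 4 arrays. Only Plk2 reached 2-fold, at -1.06 ± 0.30, and 0 members were higher; percent called over all genes was 1.18 for lower and 0.513 for higher. With spike-in scaling Plk2 was at -0.76 and Zmat3 at 1.15. Next in size were Fas (-0.90 ± 0.18) and Bbc3 (-0.65 ± 0.16) on the lower side. Zmat3 (0.86 ± 0.18), Trp53inp1 (0.69 ± 0.38), Phlda3 (0.64 ± 0.18) and Ccng1 (0.58 ± 0.18) were on the higher side. The median was 0.06, against -0.03 over all genes, and 20 of 27 members were above 0, as were 45.0% of all genes. Spike-in scaling moved the medians to 0.36 and 0.26, with 23 of 27 members above 0. At 1.5-fold 3 were higher (Zmat3, Trp53inp1 and Phlda3) and 3 lower (Plk2, Fas and Bbc3), against 2.92% and 5.22%.

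Members with a half-site in a promoter window lay above 0 in LPS, 10 of 10, with a median of 0.33. They ran from 0.02 (Polk, with a technical SD of 0.13) to 0.59. Of the 11 members measured with a window but no half-site, 7 were above 0, with a range from -1.30 to 2.05 and a median of 0.07. The 8 members with no window are in neither group, and they lay on both sides of 0, as with Zmat3 (0.91) and Pmaip1 (-0.30). This split was looked for after the values were seen. Over all genes the half-site did not go with higher values: 47.6% of 867 genes with one and 51.2% of 9370 without one were above 0. In DMSO 8 of 10 members with and 8 of 10 without a half-site were above 0. With spike-in scaling these were 0 of 10 and 2 of 10 (Phlda3 and Fas), against 11.1% and 11.4% of all genes, while the counts in LPS were the same.

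Few other genes tied to p53 passed 2-fold between the siRNAs, and few of all genes did. Of 30 further p53 targets, 26 were compared in DMSO with none past 2-fold, against 1.01% higher and 0.537% lower over all genes. In LPS 25 were compared, with 1 lower and 0 higher, against 1.46% and 1.06%. The medians were 0.07 in DMSO and 0.05 in LPS. Of the 25 measured, 15 were above 0 in DMSO, where 58.4% of all genes were, and 16 in LPS, where 50.8% were. With spike-in scaling 3 were above 0 in DMSO (median -0.23), against a median of -0.26 over all genes. The 1 called lower was Ddit4, an inhibitor of mTORC1 that also answers to hypoxia and ATF4, at 2.71-fold lower (levels of 3.62 and 2.18). Gadd45a, a growth arrest and DNA damage gene, was 1.87-fold higher with Ruvbl2 siRNA in DMSO and 1.75-fold lower in LPS. Ak1, adenylate kinase 1, differed by 0.81 in DMSO, Sfn, which encodes 14-3-3 sigma, by 0.60 in LPS and Pidd1, a death domain adaptor, by 0.52 in LPS. Trp53i11 differed by -0.32 in DMSO.

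Of 30 kinases and modifiers of p53, 29 were compared and none passed 2-fold in any comparison. The share of all genes called in 1 direction was 0.513% to 5.74%, by comparison. Cdkn2a, whose ARF product blocks MDM2, was not detected on any array. In DMSO 17 of the 29 were above 0 with a median of 0.04, against 58.4% and 0.04 over all genes. With spike-in scaling 2 were above 0, and the median was -0.26, as over all genes. In LPS 19 were above 0, with a median of 0.10, against 50.8% and 0.00 over all genes. Setd7, a lysine methyltransferase, was the highest in both treatments (0.42 and 0.42), followed by the acetyltransferase gene Kat5 in DMSO (0.31 ± 0.06) and the checkpoint kinase gene Chek1 in LPS (0.24 ± 0.13). The lowest in DMSO were the DNA damage kinase genes Prkdc (-0.41 ± 0.13) and Atm (-0.33 ± 0.13). In LPS they were the p53 family gene Trp73 (-0.29 ± 0.27) and Ppp1r13l (-0.20 ± 0.13), an inhibitor of p53.

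Of 18 cell cycle genes that p21 and the DREAM complex repress, 0 passed 2-fold in any comparison. Over all genes the share called in 1 direction ran from 0.513% to 5.74%. In DMSO 8 were above 0 between the siRNAs, with a median of -0.08, against 58.4% and 0.04 over all genes. With spike-in scaling 0 were above 0. The transcription factor gene E2f1 (0.28 ± 0.06) and the mitotic kinase gene Plk1 (0.20 ± 0.06) were highest there, and Cenpa, a centromeric histone (-0.32 ± 0.06), and Bub1, a spindle checkpoint kinase (-0.31 ± 0.06), lowest. In LPS 14 of 18 were above 0 with a median of 0.16, against 50.8% of all genes and a median near 0. Ccnb1, cyclin B1 (0.66 ± 0.06), and the mitotic kinase gene Aurka (0.36 ± 0.06) were highest, and Bub1 (-0.16 ± 0.06) and Ccna2, cyclin A2 (-0.08 ± 0.06), lowest. LPS went with lower values in 14 of the 18 under control siRNA (median -0.23), against 6363 of 12722 genes measured. Under Ruvbl2 siRNA 10 of the 18 were lower (median -0.02), against 6813 of 12655. In the difference of the LPS effects 17 of 18 were above 0 with a median of 0.16, against 45.0% and -0.03 over all genes. Spike-in scaling raised the all-gene median to 0.26 there and to 0.33 for LPS with Ruvbl2 siRNA. Counts above and below 0 in those comparisons thus depend on the scaling.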

How the data were processed

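The 4 RNA samples were hybridised in 1 colour (Cy3) to an Agilent mouse array, and the scanner output was made with Agilent Feature Extraction 11.5.1.1 per the file headers (11.0 per the submitters' processing notes). The deposited values are intensity, per the file headers, and this signal is background-subtracted and detrended within the array with no scaling across arrays. The value table deposited with them, also intensity, equalled it at all 62976 spots of each array (relative tolerance 1e-06). Control spots (3671) were left out, replicate spots averaged on the log2 scale without population outliers, and the 75th percentile over probes subtracted. RefSeq accessions named 32989 of 56605 probes. A gene detected on the brighter array alone was compared with the higher of its own value and the lowest level of any detected probe on the other array (a bound). Genes detected on neither array were not compared. The functions were tested on simulated data. Alternatives were run with R 4.3.3 and limma 3.58.1 (normexp, offset 50, on the median spot signal, since no mean signal column is used here, and quantile normalization) and Python 3.11.15. Replicates number 1 per group, so no test was made, and precision is limited by how few arrays there are.

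The members, lists and rules were chosen with earlier results of these data known, and the counts past 2 technical SDs and the split by half-site after the values were seen. All 30 members are accounted for by rule, and from each further list come the genes at either extreme of each siRNA comparison (at most 2 a side, measured on both arrays). Array annotation and promoter table rest on different builds, so positions are given for promoter sequences alone, credited to RefSeq.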

Additional observations from a re-analysis of the deposited data

Results flagged for a closer look

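Ccng1 and Phlda3 were singled out because LPS moved them in opposite directions with the 2 siRNAs, each by more than 2 technical SDs; with 1 array per group the difference between the siRNAs was not tested. For Ccng1 the LPS difference was -0.27 ± 0.13 with control siRNA and 0.31 ± 0.13 with Ruvbl2 siRNA. For Phlda3 it was -0.33 ± 0.13 with control siRNA and 0.32 ± 0.13 with Ruvbl2 siRNA. With spike-in scaling the signs stayed opposite, at -0.20 and 0.68 for Ccng1 and at -0.25 and 0.68 for Phlda3. With that scaling neither difference with control siRNA was past 2 technical SDs. Opposite signs of any size were seen in 6 of 27 members and in 3120 of 12469 genes before that scaling. The technical SD at these levels rests on 18 pairs of a probe and an array.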

How the results depend on the processing

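No paired analysis was possible because each group has 1 array. The counts of members past the size rule did not move beyond 1.5 times with centring on detected probes or with the deposited value table. With E1A spike-in scaling, 1 member was lower for LPS with control siRNA, and for the difference of LPS effects 1 was higher and 0 lower; the median siRNA difference in DMSO turned to -0.17, while that of all genes went to -0.26, and the members' medians went to 0.55 for LPS with Ruvbl2 siRNA and 0.36 for the difference of LPS effects. With quantile normalization 1 was lower for LPS with Ruvbl2 siRNA (Sesn1) and 0 for the difference of LPS effects. With normexp and quantile normalization 1 was lower for LPS with control siRNA, 1 for LPS with Ruvbl2 siRNA and 0 for the difference of LPS effects, and for the siRNAs in LPS 1 was higher (Phlda3, at 1.91) and 0 lower. Requiring a level of -2 on the brighter array left 1 higher and 1 lower for the siRNAs in LPS and turned the median LPS difference with Ruvbl2 siRNA to -0.011. Without a filter on dim probes 2 were higher for the siRNAs in DMSO, and the median LPS difference with control siRNA was -0.036. With the mean of the probes 1 (Trp53inp1, at 1.02) was higher for the difference of LPS effects, and the median LPS difference with Ruvbl2 siRNA was 0.055. The spike-in version of the half-site counts was chosen after seeing the data. At 1.5-fold the counts were 6 higher and 4 lower for LPS with control siRNA, 2 lower for LPS with Ruvbl2 siRNA, 3 higher for the siRNAs in DMSO, 5 higher for the siRNAs in LPS, and 3 higher and 3 lower for the difference of LPS effects. Filters and size rules change which genes can pass; for the scalings the cause was not tested. No called member changed sign under any alternative. Trp53inp1, Eda2r and Gdf15 lay near background, which limits their values.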
